A study of Homo sapiens with 8 samples.

Results

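The genes described here are the SCAN-domain zinc finger genes, chosen by symbol: every gene of the expression table whose symbol begins with ZSCAN or ZKSCAN, and in addition ZNF263, 17 other ZNF-named genes that carry the domain, MZF1 and SCAND1. They came to 48 of the 18902 genes analysed, and all 48 symbols matched a current RefSeq symbol. By name they comprised ZNF263, 7 ZKSCAN genes, 21 ZSCAN genes, 17 other ZNF genes, MZF1 and SCAND1. RNA was sequenced from 2 human hepatocellular carcinoma lines, MHCC-97H and MHCC-97L, which are known as sublines of the same parent line selected for high and low metastatic capacity. The 4 groups were MHCC-97H with Flag-OGT, MHCC-97H control, MHCC-97L with Flag-OGT and MHCC-97L control, with 2 libraries each. Flag-OGT cells carried full-length human OGT with a C-terminal Flag tag from a lentivirus and were selected for neomycin resistance; OGT is the enzyme that attaches O-linked N-acetylglucosamine to nuclear and cytosolic proteins. The labels give the control cells no genotype and do not say whether they carried an empty vector or went through the same selection, and nothing says that the paired libraries came from separate cultures, so p-values measure only the spread between libraries.

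The SCAN domain is a leucine-rich segment near the N terminus through which these proteins pair with themselves and with each other, and most members follow it with an array of C2H2 zinc fingers that reads DNA. Many also carry a KRAB domain, whereas SCAND1 consists of the SCAN domain without fingers. In many zinc finger proteins a KRAB domain recruits the corepressor TRIM28 and the histone methyltransferase SETDB1, but KRAB domains differ in this. Whether those of the members do so was not tested. ZNF263 has both a SCAN and a KRAB domain, binds G-rich sequence around the core GGGAGGA, and has been described as a regulator of heparan sulfate sulfotransferase genes.

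Library-wide measurements bear on every Flag-OGT comparison. OGT itself was at 59.0 and 58.4 FPKM (mapped fragments scaled for transcript length and library total) in MHCC-97H Flag-OGT cells, against 32.5 and 34.2 FPKM in MHCC-97H control cells. MHCC-97L cells had OGT at 51.0 and 54.5 FPKM with Flag-OGT, against 45.7 and 43.9 FPKM in control cells. There the log2 difference was 0.23 (limma adjusted p = 0.00338). This call was lost after rescaling to a common sum (0.11, limma adjusted p = 0.0985) and under median-of-ratios scaling of the libraries (0.02, 0.685). The table does not separate transgene from endogenous OGT. All 10 hepatocyte markers, such as ALB and HNF4A, were found. Their summed level was 1.63 to 2.12 FPKM in MHCC-97H Flag-OGT libraries and 92.7 to 98.4 FPKM in MHCC-97H controls, and it was 2.19 to 4.31 FPKM in MHCC-97L Flag-OGT libraries and 183.8 to 190.8 FPKM in MHCC-97L controls. None of the 10 reached 1 FPKM in both libraries of a Flag-OGT group, TTR being listed at 0 in all 4 of these libraries. The 5 simple-epithelium markers summed to 19.1 to 29.9 FPKM in the Flag-OGT libraries of both lines and to 5674 to 6619 FPKM in the controls, while 7 fibroblast markers summed to 14.6 to 20.9 FPKM with Flag-OGT and to 4.54 to 12.2 FPKM without it. The 7 leukocyte markers found of 8 summed to 3.48 to 9.64 FPKM with Flag-OGT and to 69.3 to 82.5 FPKM without it, the 5 endothelial markers to 0.66 to 1.57 FPKM with it and 33.5 to 46.4 FPKM without, and 6 erythroid markers of 7 to 0.86 to 2.04 FPKM with it and 0.52 to 1.16 FPKM without. Within the sums single markers moved both ways: of the fibroblast markers, ACTA2 averaged 15.6 and LUM 0.035 FPKM in MHCC-97H Flag-OGT libraries, against 0 and 10.0 FPKM in their controls, and most of the leukocyte sum in controls was CD68, which averaged 1.13 FPKM in MHCC-97H Flag-OGT libraries and 78.6 FPKM in their controls. The labelled cell type was therefore not borne out by its defining markers in the Flag-OGT libraries of either line. The part of these marker shifts in the results below was not tested, and no Flag-OGT comparison can be given without the libraries that carry them. In bulk RNA, fewer cells that express a gene and less of its RNA per cell cannot be told apart.

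ZNF263 stayed within a narrow range across all 8 libraries, 12.5 to 15.4 FPKM. It was at 15.3 and 14.3 FPKM in MHCC-97H Flag-OGT cells, against 13.7 and 15.4 FPKM in MHCC-97H control cells. MHCC-97L cells had 12.5 and 13.1 FPKM with Flag-OGT, against 15.0 and 14.2 FPKM in control cells. The MHCC-97H groups overlapped, whereas both MHCC-97L Flag-OGT libraries lay below both controls and were the lowest of the 8. Such separation was common: of all genes tested, both MHCC-97H Flag-OGT libraries lay above both controls in 52.0% and below both in 39.5%. In MHCC-97L these shares were 53.8% and 38.3%. LINC00921 overlaps ZNF263 on the same strand and TIGD7 on the opposite strand. Of the short stretches of ZNF263 transcripts, 0.505% also occur in other genes. Without a stated strand setting, reads from these overlaps cannot be told apart. ZNF263 ranked 4 of the 48 genes in MHCC-97H Flag-OGT and 4 in MHCC-97H control cells. It ranked 6 in MHCC-97L Flag-OGT and 5 in MHCC-97L control cells. The 250 bases before its RefSeq start on chromosome 16 (GRCh38.p14, chr16:3283241-3283490, plus strand) are shown because this is the promoter of the factor whose own target motif is examined below; they hold 17 CpG dinucleotides and no GGGAGGA on either strand, which is a statement on these letters alone.
ZNF263: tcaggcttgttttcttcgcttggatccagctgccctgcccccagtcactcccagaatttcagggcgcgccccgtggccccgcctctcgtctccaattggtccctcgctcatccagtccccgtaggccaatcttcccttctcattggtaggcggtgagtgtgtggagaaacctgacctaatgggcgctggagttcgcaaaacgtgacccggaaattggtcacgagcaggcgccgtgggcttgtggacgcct

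On the log2(FPKM + 1) scale, on which all differences here are given and which understates the change of genes at low FPKM, ZNF263 differed by 0.03 ± 0.07 (SE) between Flag-OGT and control in MHCC-97H, with a 95% interval of -0.134 to 0.185 and an adjusted p of 0.747 in limma. In MHCC-97L it fell by 0.17 ± 0.07, with an interval of -0.334 to -0.0150 (limma adjusted p = 0.0417). That call was lost without a filter on low values (adjusted p = 0.0528), under quantile normalization (0.0529) and when any 1 of 6 libraries was left out (adjusted p up to 0.197). The difference between the changes of the lines was 0.20 ± 0.10, with an interval of -0.0254 to 0.426 (adjusted p = 0.107), and it passed the threshold only when MHCC-97H control replicate 2 was left out (0.28, adjusted p = 0.0334). In MHCC-97H the small difference took either sign with the scaling, from -0.17 under median-of-ratios scaling (adjusted p = 0.0413) to 0.03 as deposited. Median-of-ratios scaling also moved the median of all genes in that comparison to -0.00805, against 0.148 as deposited. The plot of FPKM by library sets ZNF263 beside members that moved.

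**Figure D1:**
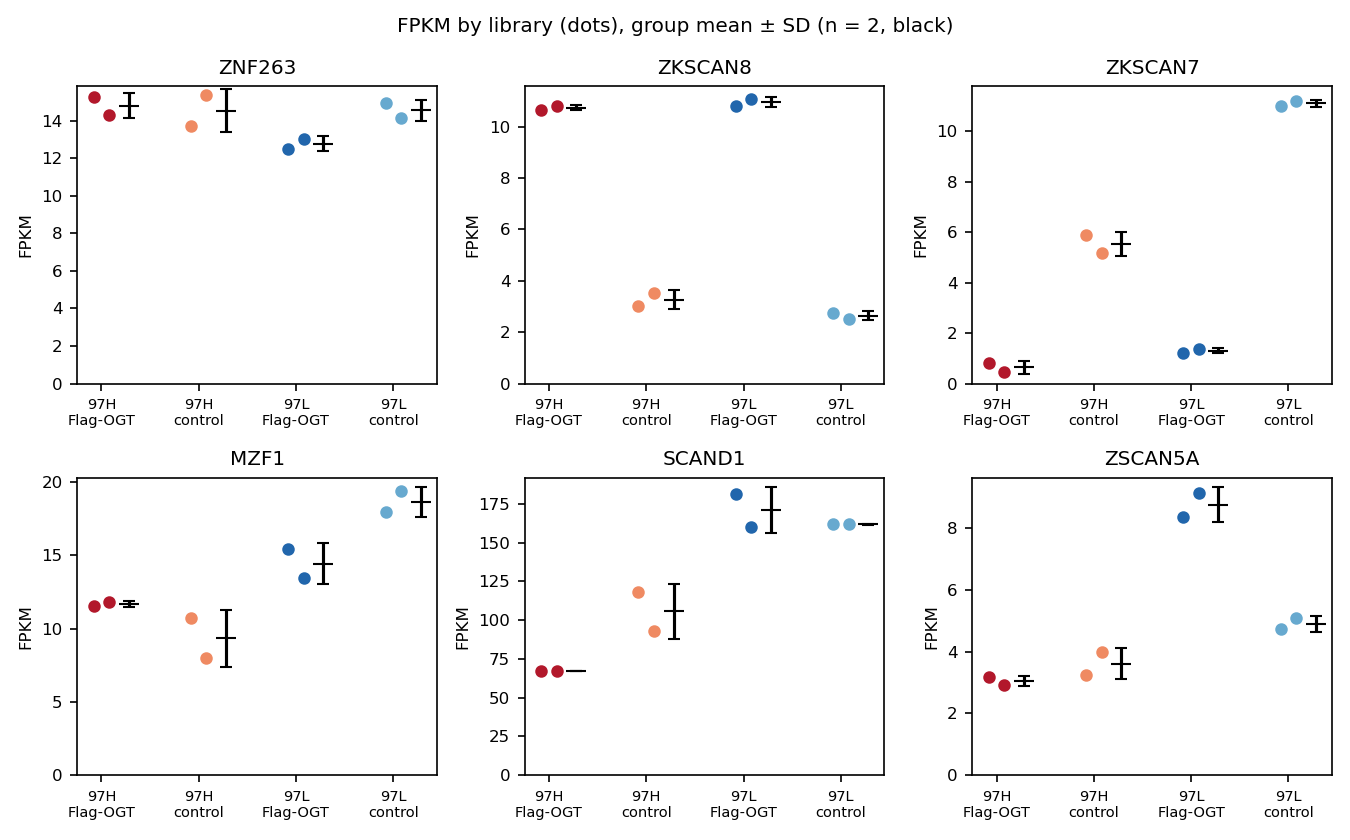
FPKM (y axis, linear from 0) of 6 SCAN genes in each library of the 4 groups (x axis), with the group mean ± SD in black (n = 2). ZNF263 keeps between 12.5 and 15.4 FPKM, ZKSCAN8 is higher and ZKSCAN7 lower in the Flag-OGT libraries of both lines, and MZF1, SCAND1 and ZSCAN5A differ between the lines.

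As a set, the SCAN genes were expressed in both lines and both states, with 34 to 36 of the 48 at 1 FPKM or more in each library. Their summed FPKM was 329.2 and 324.4 in MHCC-97H Flag-OGT, 353.9 and 330.7 in MHCC-97H control, 461.3 and 434.1 in MHCC-97L Flag-OGT, and 452.2 and 454.4 in MHCC-97L control libraries, or 0.0611% to 0.0808% of a library. SCAND1 had the highest FPKM of the 48 in every group and ZNF444, which is known to bind the promoter of an endothelial scavenger receptor gene, the next highest. With a mean of at least 0.5 FPKM over the 8 libraries, 38 members could be tested; the lowest of them was ZSCAN20 at 1.09 FPKM, and the highest of the others ZNF396 at 0.431 FPKM. The 10 untested members were ZNF287, ZNF396, ZSCAN1, ZSCAN4, ZSCAN5B, ZSCAN5C, ZSCAN10, ZSCAN18, ZSCAN23 and ZSCAN30.

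**Figure D2:**
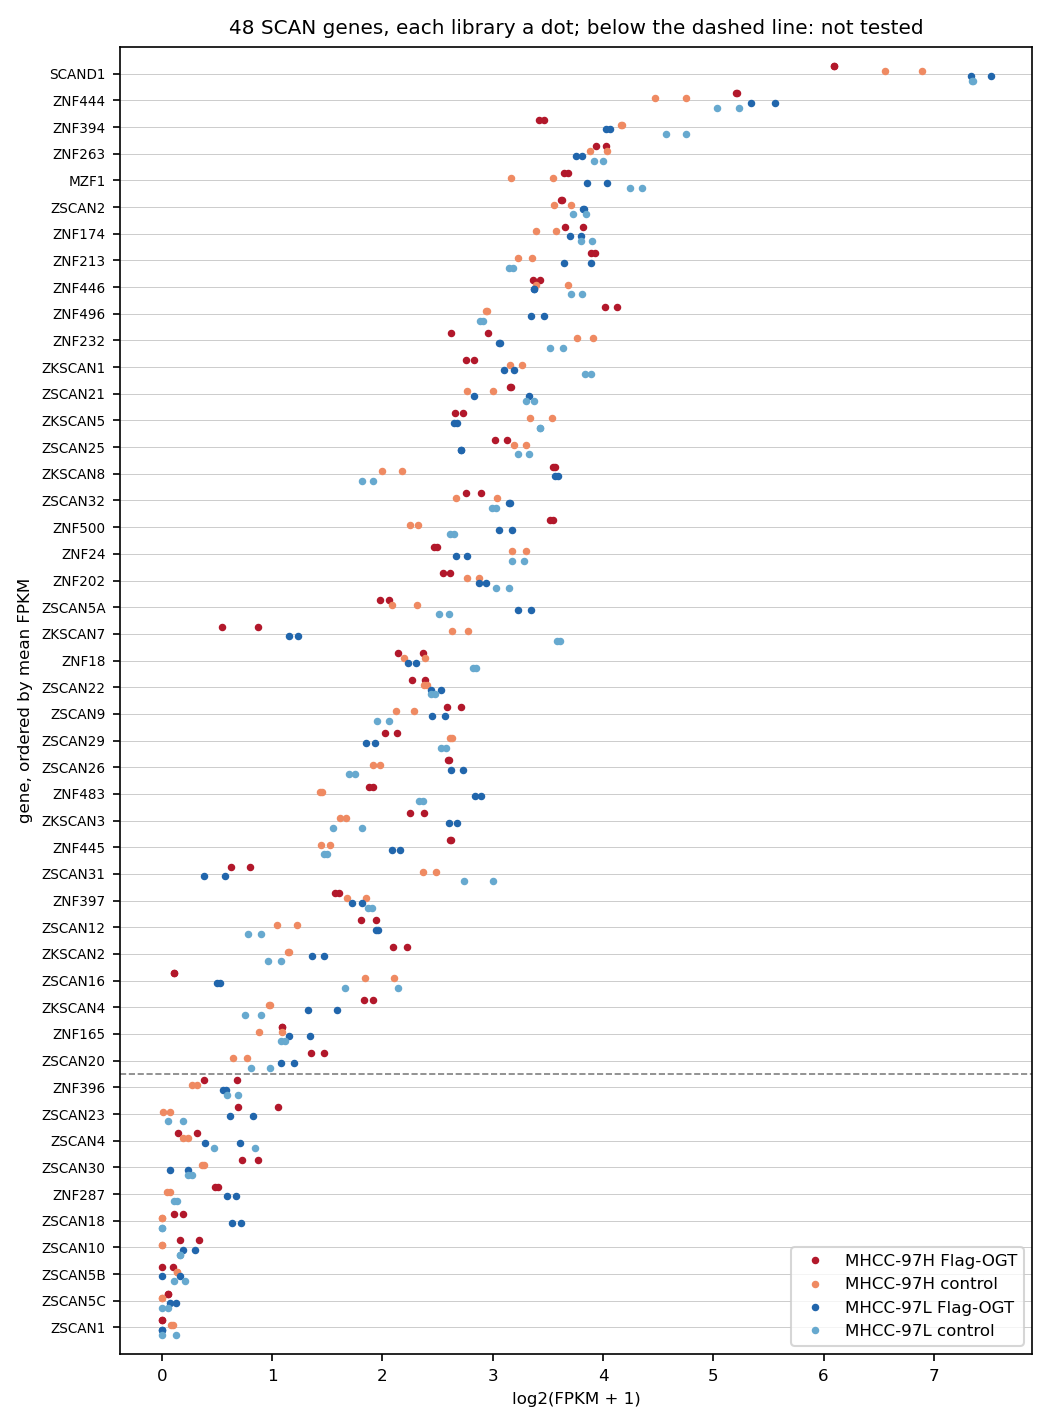
Level of all 48 SCAN genes (rows, ordered by mean FPKM) as log2(FPKM + 1) on the x axis, each dot being 1 library of the 4 groups. The 10 genes below the dashed line had a mean under 0.5 FPKM and were not tested, and SCAND1 and ZNF444 lead the 38 above it.

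Flag-OGT cells differed from control cells in most SCAN genes, in both directions. In MHCC-97H, 27 of the 38 tested members were called (limma adjusted p under 0.05), 16 higher and 11 lower, which is 71.1% against 84.6% of all genes tested; 48.2% of all genes were called higher and 36.3% lower. In MHCC-97L, 30 were called, 15 higher and 15 lower, or 78.9% against 84.8% of all genes, of which 50.1% were called higher and 34.7% lower. The members' share of calls was thus below that of all genes in both lines, and close to the 72.1% and 75.6% of the 401 tested other ZNF genes in MHCC-97H and MHCC-97L. The median log2 difference of the members was 0.01 in MHCC-97H and 0.03 in MHCC-97L, beside 0.15 and 0.19 over all genes. The median size of the difference regardless of sign was 0.61 for the members and 0.73 for all genes in MHCC-97H, and 0.52 and 0.70 in MHCC-97L. A called change of at least 2-fold on the log2(FPKM + 1) scale was found in 9 members in MHCC-97H (5 higher, 4 lower; all genes 38.2%) and in 5 in MHCC-97L (2 higher, 3 lower; all genes 34.7%). Between the group means in FPKM, 12 called members differed by at least 2-fold in MHCC-97H (8 higher, 4 lower; all genes 47.5%) and 8 in MHCC-97L (5 higher, 3 lower; all genes 44.4%). The split between higher and lower depended on scaling. In MHCC-97H it was 14 higher and 18 lower under median-of-ratios scaling and 14 and 16 under quantile normalization, and in MHCC-97L it was 13 higher and 18 lower both after rescaling to a common sum and under median-of-ratios scaling.

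Most members were called with the same sign in MHCC-97H and MHCC-97L, comparisons that share no library. Of the 38, 14 were higher with Flag-OGT in both lines (36.8%, against 40.0% of all genes tested), 10 were lower in both (26.3% against 27.4%) and 1, MZF1, was higher in MHCC-97H and lower in MHCC-97L (opposite calls in 2.63% of members against 6.6% of all genes). These shares lay near or below those of all genes. With the values as deposited, another 7 were called in 1 line: ZNF174 higher and SCAND1 lower in MHCC-97H, ZSCAN5A higher in MHCC-97L, and ZNF263, ZNF18, ZNF446 and ZSCAN25 lower in MHCC-97L. The remaining 6, ZNF165, ZNF397, ZSCAN2, ZSCAN21, ZSCAN22 and ZSCAN32, were called in neither, although each was called in MHCC-97H under at least 1 alternative. There ZNF397 was lower under 6 alternatives (log2 difference down to -0.41, limma adjusted p = 0.000304) and ZSCAN21 higher under 4. ZNF165 was lower there under quantile normalization (-0.22, limma adjusted p = 0.0406). In MHCC-97L, ZNF174, ZNF397 and ZSCAN21 were called lower after rescaling to a common sum and under median-of-ratios scaling.

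**Figure D3:**
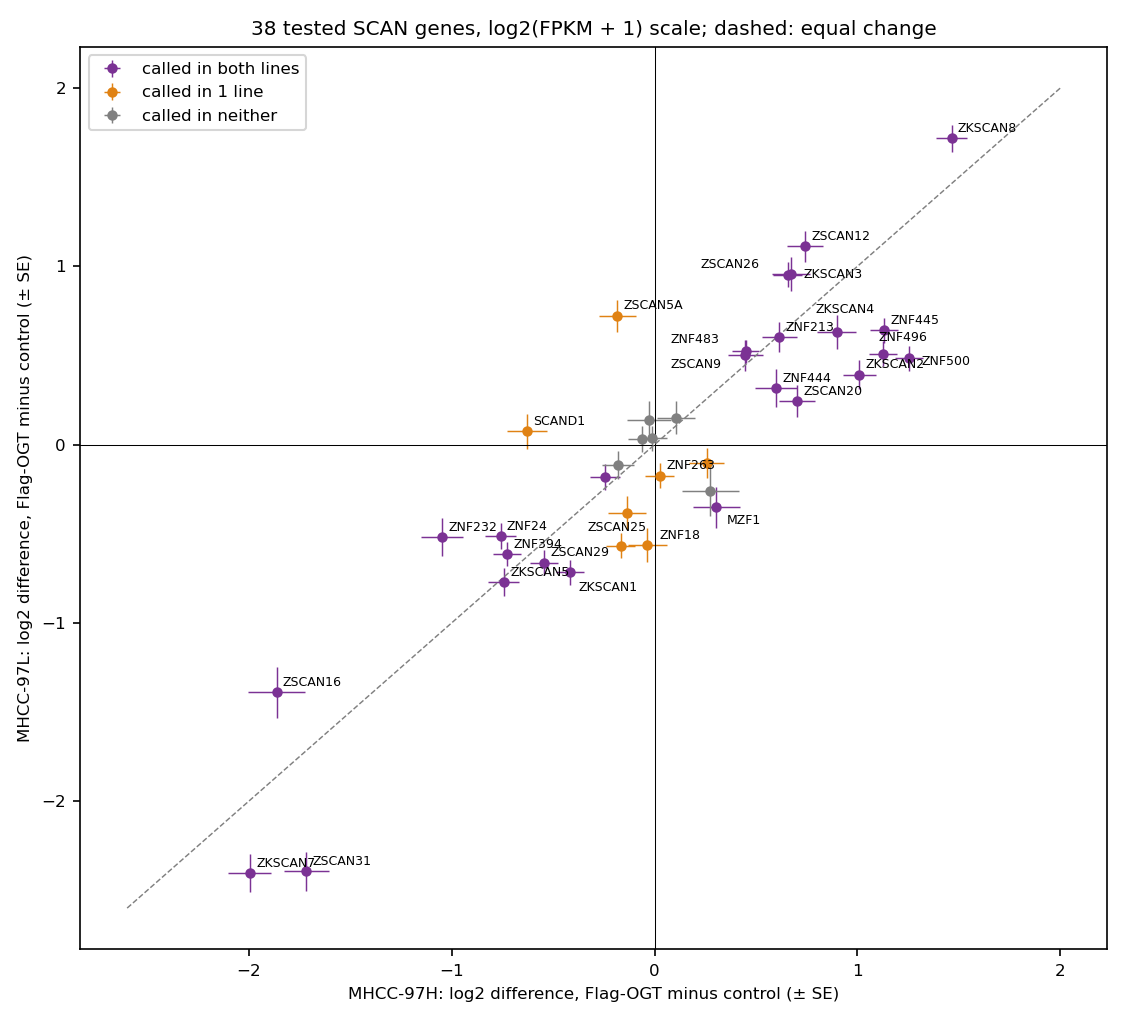
Log2 difference between Flag-OGT and control in MHCC-97H (x axis) and MHCC-97L (y axis) for the 38 tested SCAN genes, with SE bars, on the log2(FPKM + 1) scale. The 14 genes higher in both lines lie at the upper right and the 10 lower in both at the lower left, with ZKSCAN7, ZSCAN31 and ZSCAN16 farthest down.

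Of the 7 ZKSCAN genes, named for a KRAB beside the SCAN domain, all were called in both lines with the same sign in each. ZKSCAN2, ZKSCAN3, ZKSCAN4 and ZKSCAN8 were higher and ZKSCAN1, ZKSCAN5 and ZKSCAN7 lower. Of all genes tested, 40.0% were called higher and 27.4% lower in both lines. ZKSCAN8 had the largest increase of the tested members in both lines on the log2(FPKM + 1) scale. It was at 10.7 and 10.8 FPKM in MHCC-97H Flag-OGT cells, against 3.00 and 3.52 FPKM in MHCC-97H control cells, and at 10.8 and 11.1 FPKM in MHCC-97L Flag-OGT cells, against 2.76 and 2.51 FPKM in MHCC-97L control cells. The 4 Flag-OGT libraries lay within 0.5 FPKM of each other and the 4 controls were all far below them. The log2 difference was 1.46 ± 0.08 in MHCC-97H and 1.72 ± 0.08 in MHCC-97L (limma adjusted p = 2.87e-08 and 9.87e-09).

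ZKSCAN3, known as a repressor of autophagy and lysosome genes, was at 3.76 and 4.19 FPKM in MHCC-97H Flag-OGT cells, against 2.18 and 2.06 FPKM in their controls, and at 5.09 and 5.38 FPKM in MHCC-97L Flag-OGT cells, against 1.94 and 2.51 FPKM in their controls. Neither line's groups overlapped, and the log2 difference was 0.67 ± 0.09 in MHCC-97H and 0.96 ± 0.09 in MHCC-97L (limma adjusted p = 6.44e-05 and 4.30e-06). ZKSCAN4, its near neighbour in sequence, rose by 0.90 ± 0.10 in MHCC-97H and 0.63 ± 0.10 in MHCC-97L; 9.07% of the 50-base stretches of ZKSCAN4 transcripts also occur in ZKSCAN3, so reads could have been split between the pair. ZKSCAN2 was at 3.67 and 3.28 FPKM in MHCC-97H Flag-OGT cells, against 1.21 and 1.23 FPKM in MHCC-97H controls. MHCC-97L cells had 1.57 and 1.77 FPKM with Flag-OGT, against 1.12 and 0.95 FPKM in their controls without it. Its increase was larger in MHCC-97H, by 0.62 ± 0.11 on the log2 scale (limma adjusted p = 0.000987).

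ZKSCAN7 had one of the largest decreases in both lines on the log2(FPKM + 1) scale, together with ZSCAN16 and ZSCAN31, described below. It was at 0.83 and 0.46 FPKM in MHCC-97H Flag-OGT cells, against 5.87 and 5.18 FPKM in MHCC-97H control cells, and at 1.22 and 1.36 FPKM in MHCC-97L Flag-OGT cells, against 11 and 11.2 FPKM in MHCC-97L control cells. All 4 Flag-OGT libraries were below 1.5 FPKM and all 4 controls above 5 FPKM. The log2 difference was -2.0 ± 0.11 in MHCC-97H and -2.40 ± 0.11 in MHCC-97L (limma adjusted p = 3.15e-08 and 8.86e-09). Of the ZKSCAN7 transcript stretches, cut as for ZKSCAN4, 8.79% also occur in other genes, chiefly ZNF852 and ZNF660. ZNF660 overlaps ZKSCAN7 on the same strand and ZKSCAN7-AS1 on the opposite strand. Without a stated strand setting, reads from these overlaps cannot be told apart. On chromosome 3, ZKSCAN7 shares its chromosome among the members only with ZNF445, a KRAB-SCAN protein known to maintain genomic imprints, which moved the other way. ZNF445 was at 5.10 and 5.16 FPKM in MHCC-97H Flag-OGT cells, against 1.88 and 1.72 FPKM in their controls, and at 3.26 and 3.47 FPKM in MHCC-97L Flag-OGT cells, against 1.77 and 1.83 FPKM in their controls. It was higher in every Flag-OGT library, by 1.13 ± 0.07 in MHCC-97H and 0.64 ± 0.07 in MHCC-97L on the log2 scale (limma adjusted p = 9.21e-08 and 9.40e-06). The 250 bases before the RefSeq starts of this opposed pair (GRCh38.p14) are given for comparison, ZNF445 at chr3:44477671-44477920 on the minus strand and ZKSCAN7 at chr3:44554943-44555192 on the plus strand; both are rich in CpG, with 23 and 24, and neither holds GGGAGGA on either strand.
ZNF445: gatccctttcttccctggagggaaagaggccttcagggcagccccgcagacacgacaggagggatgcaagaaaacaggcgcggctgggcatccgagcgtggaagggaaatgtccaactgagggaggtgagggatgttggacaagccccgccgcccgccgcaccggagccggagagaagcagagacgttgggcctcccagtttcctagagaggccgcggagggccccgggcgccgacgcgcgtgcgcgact
ZKSCAN7: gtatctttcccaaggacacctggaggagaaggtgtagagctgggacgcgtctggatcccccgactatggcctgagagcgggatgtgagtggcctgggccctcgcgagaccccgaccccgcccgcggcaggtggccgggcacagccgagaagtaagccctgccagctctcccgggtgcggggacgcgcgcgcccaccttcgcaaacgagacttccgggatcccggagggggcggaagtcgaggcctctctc

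ZKSCAN1, whose gene also gives rise to a circular RNA described in liver cancer that the gene-level table does not resolve, fell in both lines. It was at 5.77 and 6.10 FPKM in MHCC-97H Flag-OGT cells, against 7.91 and 8.61 FPKM in their controls, and at 7.58 and 8.17 FPKM in MHCC-97L Flag-OGT cells, against 13.8 and 13.3 FPKM in their controls. The groups did not overlap in either line, and the log2 difference was -0.42 ± 0.07 in MHCC-97H and -0.72 ± 0.07 in MHCC-97L (limma adjusted p = 0.000266 and 4.39e-06). Its upstream window on chromosome 7 (GRCh38.p14, chr7:100015346-100015595, plus strand) is shown as an instance of the ZNF263 core motif, TCCTCCC in capitals being GGGAGGA on the opposite strand.
ZKSCAN1: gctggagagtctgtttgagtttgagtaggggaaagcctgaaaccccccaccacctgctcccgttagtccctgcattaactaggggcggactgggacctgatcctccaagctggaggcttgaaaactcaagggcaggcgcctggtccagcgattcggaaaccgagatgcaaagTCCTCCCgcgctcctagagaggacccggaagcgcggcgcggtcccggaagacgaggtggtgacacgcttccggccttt

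Promoter sequence of the same length was at hand in RefSeq for 41 of the 48 members, in 64 windows. GGGAGGA on either strand occurred in 9 of them, or 14.1%, against 16% of 35116 promoter windows of all genes. The 7 members concerned were ZKSCAN1, ZKSCAN5, ZKSCAN8, ZNF213, ZSCAN5A, ZSCAN21 and ZSCAN30, of which 2 were higher and 2 lower with Flag-OGT in both lines. Member windows held a median of 18 CpG dinucleotides, against 11 over all promoters. A match to these letters is a description and not a binding site.

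Among the 13 tested ZSCAN genes, ZSCAN9, ZSCAN12, ZSCAN20 and ZSCAN26 were higher in both lines (all genes 40.0%). ZSCAN16, ZSCAN29 and ZSCAN31 were lower in both (all genes 27.4%). ZSCAN31 was at 0.74 and 0.54 FPKM in MHCC-97H Flag-OGT cells, against 4.16 and 4.61 FPKM in their controls, and at 0.30 and 0.49 FPKM in MHCC-97L Flag-OGT cells, against 7.0 and 5.69 FPKM in their controls. Every Flag-OGT library was below 1 FPKM and every control above 4 FPKM, with log2 differences of -1.72 ± 0.11 in MHCC-97H and -2.39 ± 0.11 in MHCC-97L (limma adjusted p = 1.34e-07 and 1.16e-08). ZSCAN16 was at 0.08 FPKM in both MHCC-97H Flag-OGT libraries, against 2.58 and 3.31 FPKM in their controls, and at 0.41 and 0.44 FPKM in MHCC-97L Flag-OGT cells, against 3.41 and 2.16 FPKM in their controls. Its log2 difference was -1.86 ± 0.14 in MHCC-97H and -1.39 ± 0.14 in MHCC-97L (limma adjusted p = 5.44e-07 and 6.08e-06). An antisense gene, ZSCAN16-AS1, overlaps it, and without a stated strand setting reads from the overlap cannot be told apart. ZSCAN29 fell less, by 0.55 ± 0.07 in MHCC-97H and 0.66 ± 0.07 in MHCC-97L.

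The increases of ZSCAN genes were smaller than the decreases of ZSCAN16 and ZSCAN31 in the same line. ZSCAN12 was at 2.85 and 2.50 FPKM in MHCC-97H Flag-OGT cells, against 1.06 and 1.34 FPKM in their controls, and at 2.84 and 2.89 FPKM in MHCC-97L Flag-OGT cells, against 0.86 and 0.72 FPKM in their controls. ZSCAN26 was at 5.09 and 5.05 FPKM in MHCC-97H Flag-OGT cells, against 2.77 and 2.94 FPKM in their controls, and at 5.65 and 5.16 FPKM in MHCC-97L Flag-OGT cells, against 2.37 and 2.24 FPKM in their controls. In both genes all 4 Flag-OGT libraries lay above all 4 controls, with log2 differences in MHCC-97H and MHCC-97L of 0.74 ± 0.09 and 1.11 ± 0.09 for ZSCAN12 and 0.66 ± 0.07 and 0.95 ± 0.07 for ZSCAN26. ZSCAN9 rose by 0.45 ± 0.09 in MHCC-97H and 0.50 ± 0.09 in MHCC-97L. ZSCAN20 rose by 0.70 ± 0.09 in MHCC-97H and by 0.24 ± 0.09 in MHCC-97L, where the call was lost under 3 scalings and without either of 2 libraries (limma adjusted p up to 0.247).

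With the values as deposited ZSCAN5A was called in MHCC-97L alone, and its change differed between the lines. It was at 3.17 and 2.93 FPKM in MHCC-97H Flag-OGT cells, against 3.25 and 3.97 FPKM in their controls, and at 8.35 and 9.15 FPKM in MHCC-97L Flag-OGT cells, against 4.72 and 5.09 FPKM in their controls. The MHCC-97H libraries with Flag-OGT were slightly lower and those of MHCC-97L clearly higher than their controls. The log2 difference was -0.18 ± 0.09 (limma adjusted p = 0.0818) in MHCC-97H and 0.72 ± 0.09 (2.88e-05) in MHCC-97L, and the difference between the lines was -0.91 ± 0.13 (0.000192). In MHCC-97H it was called lower under all 3 scalings, at -0.23 (limma adjusted p = 0.0398) after rescaling to a common sum, -0.34 (0.00391) under median-of-ratios scaling and -0.35 (0.00214) under quantile normalization, and without control replicate 1 of that line (-0.30, 0.0143). Of its 50-base stretches, 6.95% also occur in other genes. The related copies ZSCAN5B and ZSCAN5C stayed at 0.16 FPKM or less in every library.

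Among the 17 tested members named ZNF, with MZF1 counted among them, ZNF213, ZNF444, ZNF445, ZNF483, ZNF496 and ZNF500 were higher in both lines (all genes 40.0%). ZNF24, ZNF202, ZNF232 and ZNF394 were lower in both (all genes 27.4%). ZNF500 was at 10.5 and 10.7 FPKM in MHCC-97H Flag-OGT cells, against 3.99 and 3.75 FPKM in their controls, and at 8.01 and 7.31 FPKM in MHCC-97L Flag-OGT cells, against 5.11 and 5.27 FPKM in their controls. ZNF496, whose mouse counterpart is known as a partner of the methyltransferase NSD1, was at 16.5 and 15.2 FPKM in MHCC-97H Flag-OGT cells, against 6.73 and 6.69 FPKM in their controls, and at 10.1 and 9.15 FPKM in MHCC-97L Flag-OGT cells, against 6.52 and 6.38 FPKM in their controls. Both were higher in every Flag-OGT library than in any control, and both rose more in MHCC-97H, ZNF500 by 1.25 ± 0.07 there and 0.48 ± 0.07 in MHCC-97L, ZNF496 by 1.13 ± 0.07 in MHCC-97H and 0.51 ± 0.07 in MHCC-97L. ZNF444 was at 36.1 and 35.9 FPKM in MHCC-97H Flag-OGT cells, against 25.9 and 21.2 FPKM in their controls, and at 46.3 and 39.5 FPKM in MHCC-97L Flag-OGT cells, against 31.8 and 36.7 FPKM in their controls. Its increase of 0.60 ± 0.11 was called in MHCC-97H (limma adjusted p = 0.000370), and that of 0.32 ± 0.11 in MHCC-97L (0.0175) was lost without control replicate 1 or Flag-OGT replicate 1 of that line (0.137 and 0.158) and under 2 scalings.

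ZNF24, known as a repressor of the VEGF gene, was at 4.62 and 4.54 FPKM in MHCC-97H Flag-OGT cells, against 8.05 and 8.86 FPKM in their controls, and at 5.35 and 5.81 FPKM in MHCC-97L Flag-OGT cells, against 8.75 and 8.04 FPKM in their controls. ZNF232 was at 6.76 and 5.16 FPKM in MHCC-97H Flag-OGT cells, against 12.6 and 14.0 FPKM in their controls, and at 7.37 and 7.32 FPKM in MHCC-97L Flag-OGT cells, against 11.5 and 10.5 FPKM in their controls. Both were lower in every Flag-OGT library, ZNF24 by log2 differences of -0.76 ± 0.07 and -0.51 ± 0.07 and ZNF232 by -1.05 ± 0.10 and -0.52 ± 0.10 in MHCC-97H and MHCC-97L. ZNF394 fell by 0.73 ± 0.07 in MHCC-97H and 0.61 ± 0.07 in MHCC-97L. ZNF202, known as a repressor of genes of lipoprotein metabolism, fell by 0.24 ± 0.07 in MHCC-97H (limma adjusted p = 0.0108) and by 0.18 ± 0.07 in MHCC-97L (0.0415); the first call was lost when either of 2 libraries was left out (adjusted p up to 0.0797) and the second under 9 alternatives (up to 0.252). ZNF446, lower in MHCC-97L by 0.38 ± 0.09, shares 26.1% of its 50-base stretches with ZNF324, which overlaps it, and its value is uncertain to that extent.

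MZF1 and SCAND1, a pair of SCAN proteins known to bind each other, changed differently in the lines. MZF1, a factor first described in myeloid cells and linked to tumour cell invasion, was at 11.5 and 11.8 FPKM in MHCC-97H Flag-OGT cells, against 10.7 and 7.96 FPKM in their controls. MHCC-97L cells had 15.4 and 13.4 FPKM with Flag-OGT, against 17.9 and 19.4 FPKM in controls. No groups overlapped, but the lower MHCC-97H control stood well apart from its replicate, and the increase in MHCC-97H, 0.30 ± 0.12 (limma adjusted p = 0.0313), was 0.11 without it (0.276) and was lost under 8 alternatives in all. The decrease in MHCC-97L was 0.35 ± 0.12 on the log2 scale (adjusted p = 0.0161), and was lost without control replicate 2 or Flag-OGT replicate 2 of that line (0.0895 and 0.130). The difference between the lines was 0.66 ± 0.16 (adjusted p = 0.00595) and stayed under 0.05 with each library left out (at most 0.0334). MZF1-AS1 and CENPBD1P1 overlap MZF1 on the opposite strand, and without a stated strand setting reads from the overlaps cannot be told apart.

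SCAND1 was at 67.5 and 67.4 FPKM in MHCC-97H Flag-OGT cells, against 118.1 and 93.1 FPKM in their controls, and at 181.8 and 160.4 FPKM in MHCC-97L Flag-OGT cells, against 161.8 and 162.3 FPKM in their controls. It was lower in both MHCC-97H Flag-OGT libraries, and the MHCC-97L groups overlapped. The log2 difference was -0.63 ± 0.10 in MHCC-97H (limma adjusted p = 0.000159) and 0.07 ± 0.10 in MHCC-97L (0.490), with -0.70 ± 0.14 between the lines (0.00162). CNBD2 overlaps SCAND1 on the opposite strand, and reads from the overlap cannot be told apart.

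ZNF174, a SCAN protein that acts as a repressor in reporter assays, was at 13.1 and 11.6 FPKM in MHCC-97H Flag-OGT cells, against 9.48 and 10.9 FPKM in their controls, and at 12.04 and 12.9 FPKM in MHCC-97L Flag-OGT cells, against 13.0 and 13.9 FPKM in their controls. The MHCC-97H groups did not overlap, and those of MHCC-97L lay side by side, without overlap and without a call (limma adjusted p = 0.281). ZNF174 was called lower in MHCC-97L after rescaling to a common sum (-0.21, limma adjusted p = 0.041) and under median-of-ratios scaling (-0.30, 0.00718). Its increase in MHCC-97H of 0.26 ± 0.08 (limma adjusted p = 0.0168) was lost without control replicate 1 or Flag-OGT replicate 1 of that line (0.118 and 0.150) and under 2 scalings. ZSCAN32, which starts back to back with ZNF174 on chromosome 16, was at 5.77 and 6.41 FPKM in MHCC-97H Flag-OGT cells, against 5.35 and 7.21 FPKM in their controls, and at 7.84 and 7.92 FPKM in MHCC-97L Flag-OGT cells, against 7.18 and 6.96 FPKM in their controls. Neither of its differences was called, at -0.03 ± 0.11 in MHCC-97H and 0.14 ± 0.11 in MHCC-97L. The 210 bases between the RefSeq starts of the pair (GRCh38.p14, chr16:3401005-3401214, shown on the plus strand, on which ZNF174 is read) are given because one short interval serves both genes; they hold 20 CpG and no GGGAGGA on either strand.
ZSCAN32-ZNF174: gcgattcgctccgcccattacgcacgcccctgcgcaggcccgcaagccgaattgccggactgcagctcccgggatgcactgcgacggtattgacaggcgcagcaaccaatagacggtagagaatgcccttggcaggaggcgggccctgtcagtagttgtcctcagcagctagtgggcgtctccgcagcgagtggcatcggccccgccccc

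By position, chromosome 6 held 10 members, 9 of them tested, with 6 higher and 2 lower in both lines. In their order along it, ZSCAN16 was lower and its neighbour ZKSCAN8 higher, then ZSCAN9, ZKSCAN4 and ZSCAN26 were higher, ZSCAN31 was lower, and ZKSCAN3 and ZSCAN12 were higher. Members next to each other in this order moved in opposite directions at 3 places, ZSCAN16 with ZKSCAN8, ZSCAN26 with ZSCAN31 and ZSCAN31 with ZKSCAN3; between ZSCAN26 and ZSCAN31 lie genes that are no members. All 5 members of chromosome 7 were tested, and ZNF394, ZKSCAN5 and ZKSCAN1 were lower in both lines with none higher in both. Of the 6 tested on chromosome 16, ZNF213, ZNF500 and ZKSCAN2 were higher in both lines and none was lower in both. Of 10 members on chromosome 19, 5 were tested and ZNF444 alone was higher in both lines. No test was made of these counts by chromosome, beside which 40.0% of all genes tested were called higher and 27.4% lower in both lines.

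**Figure D4:**
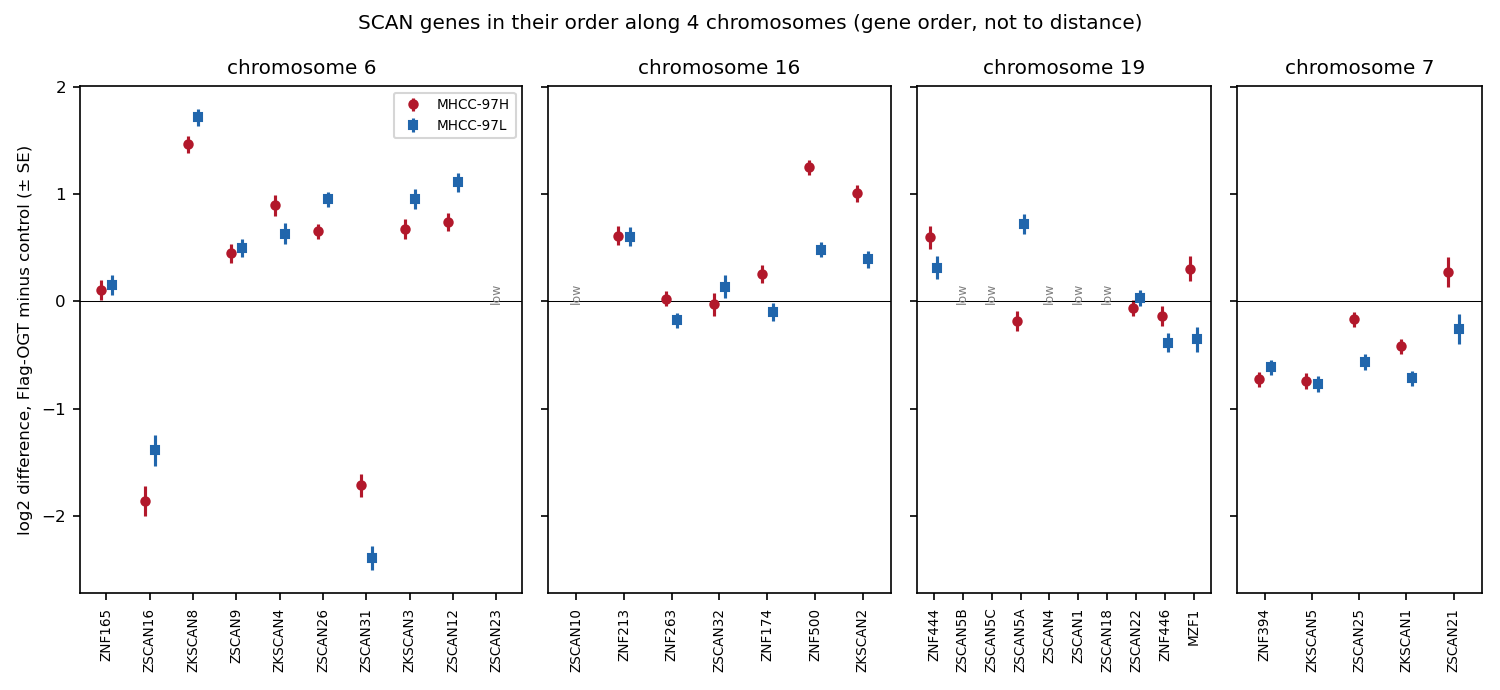
Log2 difference between Flag-OGT and control (y axis, ± SE) for the SCAN genes of chromosomes 6, 16, 19 and 7, in gene order but not to distance, circles for MHCC-97H and squares for MHCC-97L; "low" marks untested genes. On chromosome 6, ZSCAN16 and ZSCAN31 lie far below genes that are higher in both lines.

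The Flag-OGT change differed between the lines in 18 of the 38 members, or 47.4%, against 63.3% of all genes tested and 56.4% of the other ZNF genes. The difference, MHCC-97H minus MHCC-97L, was positive in 13 members (33.9% of all genes) and negative in 5 (29.4%), but 9 and 11 under quantile normalization. None reached 2-fold on the log2(FPKM + 1) scale, against 12.4% of all genes. ZSCAN16, not called as deposited (-0.47, limma adjusted p = 0.0626), was called under all 3 scalings. With a pseudocount of 0.1 the ZSCAN16 difference was -1.65 (limma adjusted p = 0.00175), its level being 0.08 FPKM in both MHCC-97H Flag-OGT libraries. For ZNF445, ZNF496, ZNF500 and ZKSCAN2 a positive value stood for a larger increase in MHCC-97H, with differences of 0.49 to 0.77. For ZSCAN31 it stood for a smaller decrease there (0.68 ± 0.16, limma adjusted p = 0.00379). ZNF18 was at 4.17 and 3.41 FPKM in MHCC-97H Flag-OGT cells, against 3.57 and 4.24 FPKM in their controls, and at 3.93 and 3.70 FPKM in MHCC-97L Flag-OGT cells, against 6.06 and 6.19 FPKM in their controls. Only the MHCC-97L controls stood apart, and its difference between the lines was 0.53 ± 0.13 (limma adjusted p = 0.00658). ZSCAN25 fell by 0.57 ± 0.07 in MHCC-97L, and its value in MHCC-97H was -0.17 ± 0.07 (adjusted p = 0.0530), with a difference between the lines of 0.40 ± 0.10 (0.00714). In MHCC-97H it was called lower under 5 alternatives, among them all 3 scalings (-0.22, -0.35 and -0.24; limma adjusted p at most 0.0176).

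**Figure D5:**
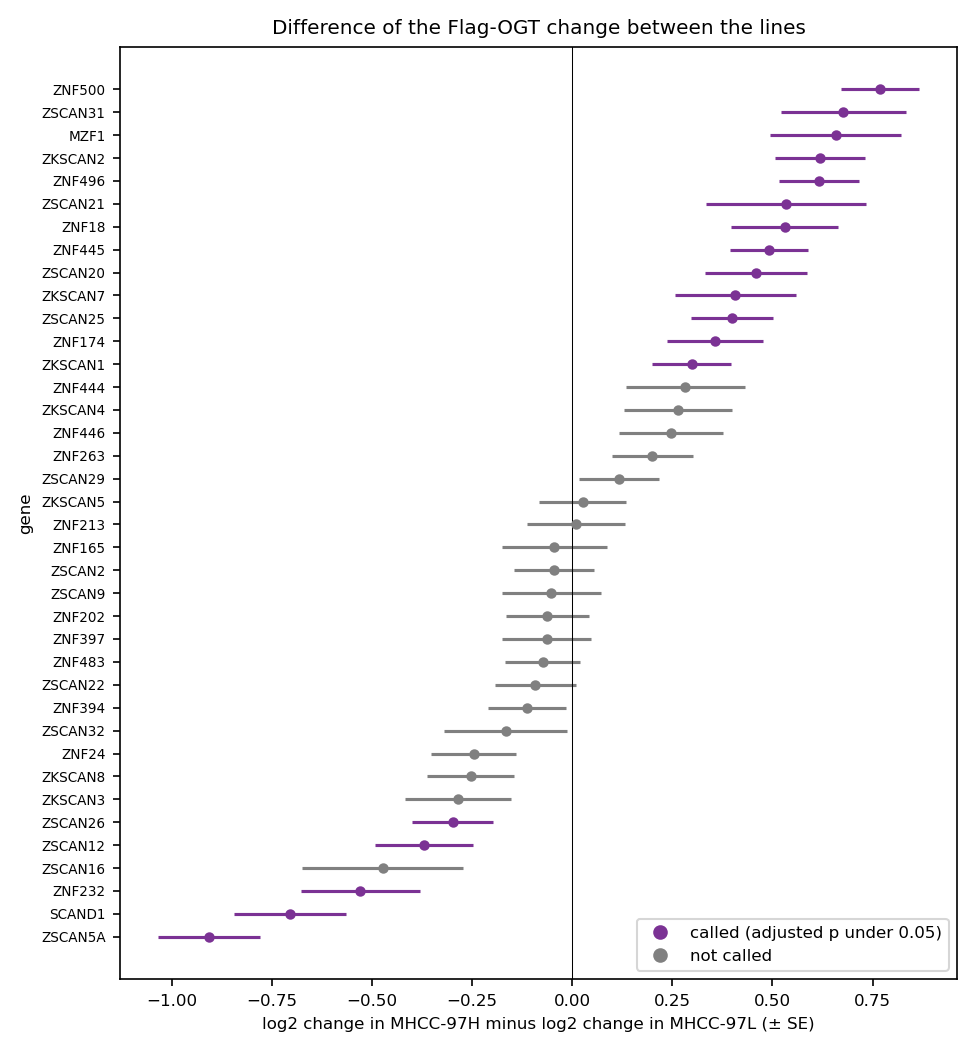
Difference between the lines' Flag-OGT changes (x axis, log2 change in MHCC-97H minus that in MHCC-97L, ± SE) for the 38 tested SCAN genes (rows). The 18 called genes are in purple and range from -0.91 for ZSCAN5A to 0.77 for ZNF500; ZNF263 is among the 20 not called, at 0.20.

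The lines themselves were compared in the control libraries and, separately, in the Flag-OGT libraries; these comparisons share libraries with those above and add no independent evidence to them. Between controls, MHCC-97H differed from MHCC-97L in 17 of the 38 members, or 44.7% against 65.4% of all genes, with 3 higher (all genes 26.5%) and 14 lower (38.9%), none of them by 2-fold on the log2(FPKM + 1) scale (all genes 7.64%). Between mean FPKM, 3 differed by at least 2-fold, MZF1, ZKSCAN7 and ZNF483 (all genes 15.8%). The direction depended on scaling, with 6 higher and 12 lower after rescaling to a common sum, 10 and 12 under median-of-ratios scaling and 8 and 14 under quantile normalization. The 3 higher calls, ZKSCAN8, ZSCAN12 and ZSCAN26, were all lost without replicate 2 of either control group. MZF1 was at 10.7 and 7.96 FPKM in MHCC-97H and 17.9 and 19.4 FPKM in MHCC-97L controls (log2 difference -0.94 ± 0.12, limma adjusted p = 6.60e-05). ZNF483 was at 1.71 and 1.74 FPKM in MHCC-97H and 4.02 and 4.15 FPKM in MHCC-97L controls (-0.90 ± 0.07, 2.02e-06), and ZKSCAN7 at 5.87 and 5.18 FPKM in MHCC-97H and 11 and 11.2 FPKM in MHCC-97L controls (-0.89 ± 0.11, 5.30e-05). In each of these genes the MHCC-97H controls lay wholly below the MHCC-97L controls (all genes 47.9%). ZNF263 averaged 14.6 ± 1.15 FPKM in MHCC-97H and 14.6 ± 0.573 FPKM in MHCC-97L controls (SD, n = 2 each), with an interval of the log2 difference of -0.162 to 0.158.

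Between Flag-OGT libraries, MHCC-97H differed from MHCC-97L in 22 of the 38 members, or 57.9% against 69.7% of all genes, with 9 higher (all genes 33.6%) and 13 lower (36.1%). Rescaling to a common sum gave 13 higher and 7 lower, and median-of-ratios scaling 12 and 7. SCAND1, at 67.5 and 67.4 FPKM in MHCC-97H and 181.8 and 160.4 FPKM in MHCC-97L, and ZSCAN5A, at 3.17 and 2.93 FPKM in MHCC-97H and 8.35 and 9.15 FPKM in MHCC-97L, were the 2 members that differed by at least 2-fold on the log2(FPKM + 1) scale (all genes 7.83%). Between mean FPKM, ZKSCAN2, ZKSCAN7, ZNF483 and ZSCAN16 did so as well, 6 in all (all genes 17.3%). SCAND1 and ZSCAN5A were lower in MHCC-97H, by log2 differences of -1.33 ± 0.10 and -1.27 ± 0.09 (limma adjusted p = 1.99e-06 and 1.51e-06). ZKSCAN2, ZNF496, ZNF445, ZNF500 and ZKSCAN4 were the 5 highest in MHCC-97H, by 0.41 to 0.74. ZNF263 was higher in MHCC-97H by 0.20 ± 0.07 (adjusted p = 0.0301), a call lost when any 1 of the 4 Flag-OGT libraries was left out (adjusted p 0.0511 to 0.187) and under quantile normalization (0.0613).

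Lists of genes that may bear on how these proteins act were read beside them. Of 17 KRAB corepressor and heterochromatin genes, 11 were higher and 3 lower with Flag-OGT in MHCC-97H, and 9 were higher and 3 lower in MHCC-97L; the called shares, 82.4% and 70.6%, lay below the 84.6% and 84.8% of all genes. TRIM28 averaged 358.9 ± 4.71 FPKM in MHCC-97H Flag-OGT cells and 274.8 ± 25.4 FPKM in their controls, and 437.0 ± 25.8 FPKM in MHCC-97L Flag-OGT cells and 279.9 ± 9.71 FPKM in their controls (SD, n = 2 each). It rose in both lines, by 0.39 ± 0.07 in MHCC-97H and 0.64 ± 0.07 in MHCC-97L (limma adjusted p = 0.000386 and 8.88e-06), the MHCC-97H call being lost under median-of-ratios scaling (0.0525). SETDB1 averaged 23.6 ± 0.389 FPKM in MHCC-97H Flag-OGT cells and 15.8 ± 0.665 FPKM in their controls, a rise of 0.55 ± 0.06 (limma adjusted p = 5.31e-06), and 20.1 ± 0.0354 and 22.1 ± 0.0849 FPKM in MHCC-97L Flag-OGT and control cells, a difference of -0.13 ± 0.06 that was not called (0.0519).

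Of 8 further SCAN genes outside the symbol rule, 6 were tested, with 3 higher and 2 lower in MHCC-97H and 3 higher and 3 lower in MHCC-97L, or 83.3% and 100% called beside 84.6% and 84.8% of all genes. ZNF215 and ZNF197 rose in both lines, as did PGBD1, by 0.92 ± 0.07 in MHCC-97H and 1.03 ± 0.07 in MHCC-97L. ZNF274, which recruits SETDB1 to zinc finger gene clusters, averaged 8.46 ± 0.544 FPKM in MHCC-97H Flag-OGT cells and 26.3 ± 1.27 FPKM in their controls, and 13.3 ± 1.42 FPKM in MHCC-97L Flag-OGT cells and 20.9 ± 1.34 FPKM in their controls (SD, n = 2 each). Of 22 heparan sulfate synthesis genes, 21 were tested, with 14 higher and 5 lower in MHCC-97H and 13 higher and 6 lower in MHCC-97L, or 90.5% called in each line beside 84.6% and 84.8% of all genes. The sulfotransferase gene HS3ST1, described as a ZNF263 target, was listed at 0 in both MHCC-97H Flag-OGT libraries, against 1.68 and 1.71 FPKM in their controls, and at 0.04 and 0.03 FPKM in MHCC-97L Flag-OGT cells, against 6.66 and 6.56 FPKM in their controls. HS3ST3A1, another described target, averaged 9.60 ± 0.898 FPKM in MHCC-97H Flag-OGT cells and 0.78 ± 0.0566 FPKM in their controls, and 6.99 ± 0.453 FPKM in MHCC-97L Flag-OGT cells and 0.945 ± 0.276 FPKM in their controls (SD, n = 2 each). These 2 genes moved in opposite directions in both lines, HS3ST1 lower and HS3ST3A1 higher. Whether ZNF263 bears on either gene was not tested, and FPKM does not measure its protein.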

How the data were processed

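Values came from the deposited gene-level FPKM table, which has a column for each library and 2 decimals per value. Libraries were prepared from Trizol-extracted total RNA with a SMARTer cDNA kit, per the labels. The submitters' processing notes name hg19 and the tools HISAT2 2.1.0, Bowtie2, DESeq2 1.18.1 and RSEM 1.2.4, and do not tie any of them to the FPKM of the authors. As depth is unknown, no counting interval is given. Of 18928 features, 26 with symbols turned into dates were left out. All 13553 genes with a mean of at least 0.5 FPKM were fitted as log2(FPKM + 1) with a mean per group over 8 libraries in limma 3.58.1 (R 4.3.3; trended empirical Bayes, 4 residual degrees of freedom). Benjamini-Hochberg adjustment covered all of them, and calls were made under 0.05. The fit was also run on simulated data in which few genes changed, in a single group. Most genes were called in the Flag-OGT comparisons here, so that run does not vouch for these calls. Figures and tables used Python 3.11.15, pandas 2.3.3, numpy 2.4.6 and matplotlib 3.10.9.

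The members, gene lists, tests and naming rule were chosen with earlier results of these data known. Named were ZNF263, OGT, the 5 highest and 5 lowest called members per comparison, members called in opposite directions or in the difference between lines, members with a known role, and from other lists TRIM28, SETDB1, HS3ST1, HS3ST3A1 and up to 2 called genes at either end. Transcripts for shared 50-base stretches came from GENCODE on another build, and promoters from RefSeq GRCh38.p14; no coordinates were converted. Chromatin immunoprecipitation libraries were not analysed here. The alternatives tried were 3 scalings of the libraries, filters of 0 and 2 FPKM, a pseudocount of 0.1, a 2-fold minimum, no variance trend, a fit to the compared groups only, the replicate number as a block, the omission of each library in turn, and the addition of other SCAN genes. For the other lists they were added after seeing the data.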

Additional observations from a re-analysis of the deposited data

Results flagged for a closer look

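Between MHCC-97H and MHCC-97L the change with Flag-OGT differed, by a test of the difference itself in limma (adjusted p under 0.05 over all genes), in 18 SCAN genes; 63.3% of all genes tested were called in the same way. Values are the log2 change in MHCC-97H minus that in MHCC-97L. Among genes higher with Flag-OGT in both lines, the increase was larger in MHCC-97H for ZNF500 (0.769), ZKSCAN2 (0.618), ZNF496 (0.616), ZNF445 (0.491) and ZSCAN20 (0.459), and larger in MHCC-97L for ZSCAN12 (-0.370) and ZSCAN26 (-0.298). Among genes lower in both lines, the decrease was smaller in MHCC-97H for ZSCAN31 (0.677), ZKSCAN7 (0.408) and ZKSCAN1 (0.299), and larger there for ZNF232 (-0.529). MZF1 (0.658) was called in opposite directions. With the values as deposited, ZNF18 (0.530) and ZSCAN25 (0.399) were lower and ZSCAN5A (-0.906) higher in MHCC-97L alone. As deposited, too, ZNF174 (0.357) was higher and SCAND1 (-0.705) lower in MHCC-97H alone, and ZSCAN21 (0.533) was called in neither line. Under other scalings ZSCAN25 and ZSCAN5A were also called lower in MHCC-97H. ZNF174 and ZSCAN21 were called lower in MHCC-97L after rescaling to a common sum and under median-of-ratios scaling. The calls of 11 of the 18 held in all alternative fits that tested the gene, the 2-fold minimum being set apart. Those of ZKSCAN1, ZKSCAN7, ZNF174, ZSCAN12, ZSCAN20, ZSCAN21 and ZSCAN26 were each lost under some alternative. After rescaling to a common sum, ZSCAN12 was at -0.30 (limma adjusted p = 0.0628) and ZSCAN26 at -0.23 (0.0698). For ZKSCAN7 the value was 0.05 with a pseudocount of 0.1 (adjusted p = 0.886), and for ZSCAN21 it was 0.28 without MHCC-97L Flag-OGT replicate 1 (0.105). No cause of these differences was tested.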

How the results depend on the processing

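Over all alternative fits that tested a member, the 2-fold minimum being set apart, no called member difference changed sign. Calls held in all of these fits for 24 of 27 members with Flag-OGT in MHCC-97H and 25 of 30 in MHCC-97L. They held for 11 of 18 in the difference between lines, 11 of 17 between control lines and 12 of 22 between Flag-OGT lines. Of the members not called as deposited, 10 of 11, 4 of 8, 11 of 20, 13 of 21 and 9 of 16 were called under at least 1 alternative. A 2-fold minimum on the log2(FPKM + 1) scale left 9, 5, 0, 0 and 2 of the called members in that order, by construction; between mean FPKM, chosen after seeing the data, it left 12 and 8 with Flag-OGT in the lines, 3 between control lines and 6 between Flag-OGT lines. With each library left out, the counts were 25 to 29, 27 to 30, 13 to 21, 12 to 18 and 15 to 25. The replicate numbers did not pair the libraries (correlation of same-numbered deviations -0.206 to 0.309 over 6 group pairs); with a replicate block the counts were 28, 29, 18, 18 and 22, and the ZNF263 difference in MHCC-97L of -0.17 was not called (limma adjusted p = 0.0548).

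For ZNF263, the difference with Flag-OGT in MHCC-97H was -0.0270 after rescaling to a common sum, -0.17 under median-of-ratios scaling, -0.0295 under quantile normalization and -0.0496 to 0.101 with each library left out. In MHCC-97L it was -0.17 without a filter, -0.16 under quantile normalization and -0.21 to -0.14 with a library left out. The difference between lines was 0.13 to 0.28 with a library left out. Between control lines ZNF263 was at 0.12 after rescaling to a common sum, 0.14 under median-of-ratios scaling, 0.0308 under quantile normalization and -0.0772 to 0.0733 with a library left out; between Flag-OGT lines it was at 0.16 under quantile normalization and 0.15 to 0.24 with a library left out. Over all members, values not called as deposited changed sign in 12 of 186 member fits in MHCC-97H and 10 of 135 in MHCC-97L. They did so in 22 of 317 for the difference between lines, 30 of 352 between control lines and 20 of 270 between Flag-OGT lines. ZNF18 in MHCC-97H was an example (0.0633 without control replicate 2, -0.150 to 0.0793 over the libraries left out). SCAND1 in MHCC-97L was another (-0.0441 after rescaling to a common sum, -0.13 under median-of-ratios scaling, -0.0145 to 0.164 over the libraries left out). ZNF165 in MHCC-97H went from 0.11 to -0.22 under quantile normalization and was called there (limma adjusted p = 0.0406). The cause of these shifts was not tested. With 2 libraries a group and depth unknown, small differences of genes near 1 FPKM are limited by precision.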

Other observations

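Of the 10 members too low to test, 3 were higher in every Flag-OGT library than in every control of both lines. These values were picked after they were seen and carry no test. By a looser rule, each line's Flag-OGT libraries against its own controls, ZSCAN10 and ZSCAN5C were higher in both lines as well. Of all untested genes with a value above 0 in any library, 21.8% met this looser rule. The stricter rule was not counted over all genes, so no share stands beside the 3. ZSCAN23 was at 0.61 and 1.08 FPKM in MHCC-97H Flag-OGT cells, against 0.05 and 0.01 FPKM in their controls, and at 0.53 and 0.77 FPKM in MHCC-97L Flag-OGT cells, against 0.14 and 0.04 FPKM in their controls. ZNF287 was at 0.40 and 0.42 FPKM in MHCC-97H Flag-OGT cells, against 0.05 and 0.03 FPKM in their controls, and at 0.51 and 0.59 FPKM in MHCC-97L Flag-OGT cells, against 0.08 and 0.10 FPKM in their controls. ZSCAN18 was at 0.14 and 0.08 FPKM in MHCC-97H Flag-OGT cells and at 0.55 and 0.64 FPKM in MHCC-97L Flag-OGT cells, and was listed at 0 in all 4 controls.

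ZSCAN4, known from mouse for telomere lengthening in early embryos, was at 0.11 and 0.25 FPKM in MHCC-97H Flag-OGT cells, against 0.14 and 0.18 FPKM in their controls, and at 0.63 and 0.31 FPKM in MHCC-97L Flag-OGT cells, against 0.39 and 0.80 FPKM in their controls, so that groups overlapped in both lines. ZSCAN10, a pluripotency factor in mouse, did not exceed 0.26 FPKM in any library. ZSCAN30 was at 0.83 and 0.65 FPKM in MHCC-97H Flag-OGT cells, against 0.30 and 0.29 FPKM in their controls, but at 0.18 and 0.05 FPKM in MHCC-97L Flag-OGT cells, against 0.21 and 0.18 FPKM in their controls. ZSCAN30 overlaps ZNF397 on the other strand, and reads from the overlap cannot be told apart. ZNF396, ZSCAN1, ZSCAN5B and ZSCAN5C stayed under 0.62 FPKM in all libraries.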
